A study of Mus musculus with 5 samples.

Results

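Of the 32285 genes listed for each library, 9 were followed here: the lipogenic transcription factors Mlxipl (encoding ChREBP), Srebf1, Srebf2 and Nr1h3 (encoding LXR alpha), the SREBP escort Scap, the SREBP anchors Insig1 and Insig2, and the targets Thrsp and Pnpla3. The 9 genes were taken from a list by name, and all 9 were found in all 5 count matrices. Single-nucleus RNA sequencing (droplet capture of nuclei and sequencing of the 3′ ends of their transcripts) served the study as the base of a cell type atlas of white adipose depots. The 5 depots are fat around the heart (HWAT) and the kidney (NWAT), mesenteric fat (MWAT), epididymal fat (EWAT) and subcutaneous fat (SWAT). All came from 10-week-old male mice on chow diet, with no treatment and no altered allele named. Their protocol names C57BL/6J throughout, and so does the strain field of SWAT and EWAT, whereas HWAT carries C57BL/9J there, NWAT C57BL/8J and MWAT C57BL/7J. Each pool came from 6 mice, except 20 mice in HWAT and 10 in MWAT, perfused with saline that held heparin, and MWAT and SWAT had their lymph nodes cut away. Each depot was therefore 1 pooled library with no replicate, so every interval below is a 95% interval of counting error, no p-value is given, and differences between mice or dissections cannot be told apart from differences between depots.

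Fat cells make fatty acids from citrate that leaves the mitochondria. ATP citrate lyase (Acly) turns it into acetyl-CoA, acetyl-CoA carboxylase makes malonyl-CoA, and fatty acid synthase (Fasn) builds the chain. Transcription of these enzymes is driven by ChREBP, which responds to sugar metabolites, and by SREBP-1, which responds to insulin and to LXR alpha, a receptor for oxysterols. SREBP proteins are made as membrane precursors: Scap escorts them out of the endoplasmic reticulum for cleavage when sterols are low, and the Insig proteins hold Scap back when sterols are high. SREBP-2 mainly serves genes of cholesterol synthesis and uptake. Thrsp (Spot 14) is a small protein tied to lipogenesis, and Pnpla3 (adiponutrin) is a lipid droplet protein induced by feeding.

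The members lie on 7 chromosomes of the GRCm38 build, by GENCODE vM21. Mlxipl spans chr5:135089890-135138382 and Insig1 chr5:28071363-28078662, both on the plus strand. Thrsp spans chr7:97412938-97417730, Srebf1 chr11:60199089-60222581, Insig2 chr1:121304353-121332589 and Nr1h3 chr2:91184061-91202834, all on the minus strand. Srebf2 (chr15:82147181-82205379), Pnpla3 (chr15:84167837-84187236) and Scap (chr9:110333288-110384950) lie on the plus strand. On the same strand, Nr1h3 overlaps Gm13783, Pnpla3 overlaps Gm49513 and Mir6392, Srebf2 overlaps Gm49502 and Mir33, and Srebf1 overlaps Mir6921 and Mir6922. Reads in a shared stretch may not have been counted for the member, so the levels of these members are less certain. The counts are per gene, so the isoforms of Srebf1 and Mlxipl that start at different promoters could not be told apart.

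RefSeq promoter windows (250 bases before to 50 after a transcript start, GRCm38.p6) were found for 9 of the 9 members, 16 windows in all. The stretches before the start are printed for Thrsp and Insig1, which differed most between depots, for Insig2, which was highest in the 2 depots where Insig1 was lowest, and for both Mlxipl starts. Capitals mark matches, on either strand, to CACGTG (E-box, the core of a ChREBP element), TCACNCCAC (sterol element), CCAAT (NF-Y box, read on the other strand as ATTGG) and GGGCGG (Sp1 box, read on the other strand as CCGCCC).
Thrsp, chr7:97417551-97417800, minus strand: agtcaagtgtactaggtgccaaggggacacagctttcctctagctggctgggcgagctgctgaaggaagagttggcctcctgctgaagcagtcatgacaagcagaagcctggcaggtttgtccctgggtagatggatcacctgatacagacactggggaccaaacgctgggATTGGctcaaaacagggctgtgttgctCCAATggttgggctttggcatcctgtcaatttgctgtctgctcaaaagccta
Insig1, chr5:28071162-28071411, plus strand: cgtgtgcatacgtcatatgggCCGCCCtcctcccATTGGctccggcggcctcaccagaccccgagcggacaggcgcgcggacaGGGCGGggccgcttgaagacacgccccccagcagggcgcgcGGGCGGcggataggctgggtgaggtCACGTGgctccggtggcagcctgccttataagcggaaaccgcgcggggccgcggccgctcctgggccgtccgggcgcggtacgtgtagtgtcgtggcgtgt
Insig2 first start, chr1:121332590-121332839, minus strand: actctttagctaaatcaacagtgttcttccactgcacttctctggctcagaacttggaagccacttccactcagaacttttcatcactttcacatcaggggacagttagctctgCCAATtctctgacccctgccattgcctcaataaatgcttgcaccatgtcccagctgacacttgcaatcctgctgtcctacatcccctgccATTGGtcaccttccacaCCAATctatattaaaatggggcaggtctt
Mlxipl first start, chr5:135106641-135106890, plus strand: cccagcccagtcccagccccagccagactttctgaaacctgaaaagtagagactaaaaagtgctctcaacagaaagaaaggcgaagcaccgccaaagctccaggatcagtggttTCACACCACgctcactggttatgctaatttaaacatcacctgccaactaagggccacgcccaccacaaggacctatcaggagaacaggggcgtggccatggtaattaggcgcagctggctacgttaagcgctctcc
Mlxipl second start, chr5:135089640-135089889, plus strand: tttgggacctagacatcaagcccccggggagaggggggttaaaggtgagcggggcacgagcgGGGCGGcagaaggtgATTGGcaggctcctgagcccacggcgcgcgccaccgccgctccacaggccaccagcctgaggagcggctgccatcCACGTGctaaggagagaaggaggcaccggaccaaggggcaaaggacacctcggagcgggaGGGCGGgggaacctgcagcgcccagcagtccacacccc

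The E-box stood 98 bases before the second Mlxipl start and 101 bases before the Insig1 start. It was also found in both Scap windows, which overlap and hold the same site. Of all 32851 RefSeq windows, 7.15% held it. The sterol element was found 136 bases before the first Mlxipl start and in no other member window, against 1.24% of all windows. Thrsp held CCAAT on the minus strand 79 bases before its start and on the plus strand 52 bases before it, and Insig2 held 3 copies before its first start; 37.4% of all windows held at least 1 copy. Sp1 boxes were found in 35.7% of all windows. The LXR direct repeat (DR4) was found in no member window and in 0.0152% of all windows. The windows of Nr1h3 held none of the 5 motifs. These matches describe letters in a window and were not tested for binding.

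The libraries held 23313545 to 43855063 UMIs (unique molecular identifiers, counted transcript molecules) in 12324 to 19770 nuclei, of which 11094 to 16642 were retained. Clusters were named by marker genes, with the 9 members, Fasn and Acly left out of the clustering, and 17 of 48 clusters stayed unnamed. Adipocyte-like nuclei numbered 6280 in SWAT, 8487 in EWAT, 4011 in MWAT, 6522 in NWAT and 1806 in HWAT, with median depths of 1485 to 3260.5 UMIs. All 9 adipocyte markers were detected in those nuclei in every depot, with summed levels from 8882 CPM in HWAT to 13657 CPM in NWAT, where CPM is counts scaled to a class total of 1000000 UMIs. Pairs of libraries shared 40 to 87 cell barcodes, at most 0.601% of the smaller library. HWAT stood apart by plasma cell RNA: summed plasma cell markers reached 2807 CPM in its adipocyte-like nuclei, mostly Igkc at 2409 CPM, while the other 4 depots lay at 5.78 to 37.8 CPM, and 91.5% of its adipocyte-like nuclei held such a UMI. Smooth muscle markers summed to 582 CPM in adipocyte-like nuclei of MWAT, and skeletal muscle markers to 221 CPM in those of NWAT. The part of these transcripts in the differences between depots was not tested. For plasma cell RNA, values without the affected nuclei or without the HWAT library are given below. No alternative left out nuclei by smooth or skeletal muscle markers. Another alternative subtracted an estimated profile of RNA free in the droplets. The profile was built from the nuclei themselves and not measured in empty droplets. For the depot comparison it was the mean CPM of the other named classes. For the class comparison it was the sum of all retained nuclei of the depot.

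Across adipocyte-like nuclei, the members fell into a group whose level differed several-fold between depots and a group that stayed nearly level. Thrsp and Insig1 were lowest in EWAT and highest in HWAT. Mlxipl, Srebf1, Pnpla3 and Insig2 differed by 2.31-fold to 2.54-fold between their highest and lowest depots. Scap and Srebf2 differed by 1.27-fold and 1.35-fold, and Nr1h3 by 1.59-fold. EWAT held the lowest level of 6 of the 9 members, and HWAT the highest level of 4. The median share of mitochondrial UMIs in these nuclei was also lowest in EWAT (0.233%) and highest in HWAT (1.21%). It was 0.378% in NWAT, 0.405% in MWAT and 0.553% in SWAT. Its part in the differences between depots was not tested beyond the alternative with at most 2% mitochondrial UMIs, given below.

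**Figure D1:**
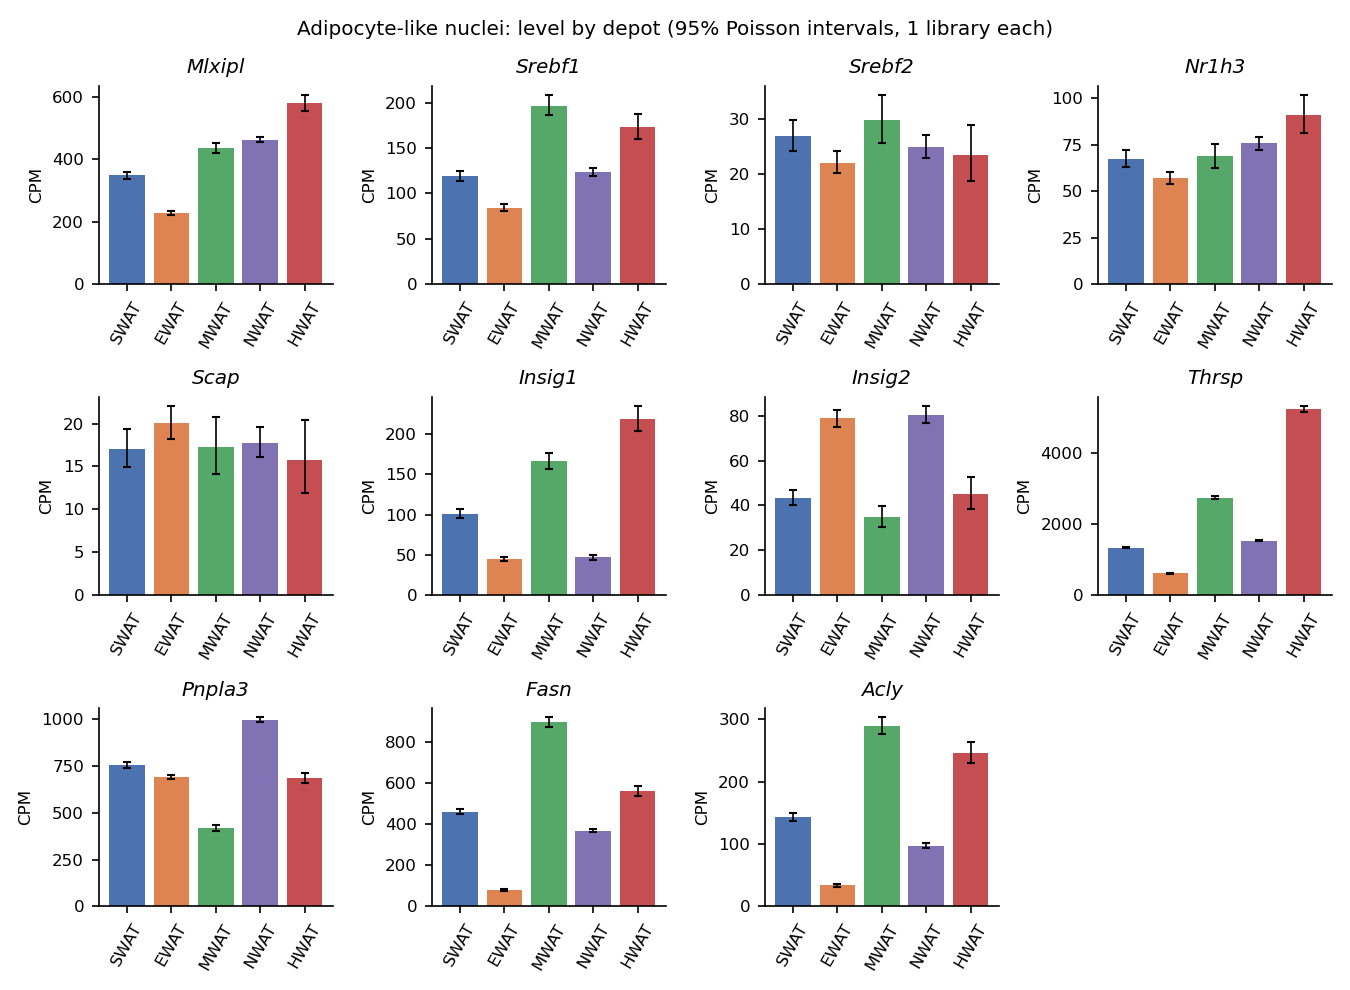
Level of each member, Fasn and Acly (CPM, y axis from 0) in adipocyte-like nuclei of the 5 depots (x axis), with 95% Poisson intervals and 1 library per bar. Thrsp and Insig1 bars are tallest in HWAT (5229 and 218 CPM) and shortest in EWAT (623 and 44.8 CPM), while the Scap bars lie between 15.7 and 20.0 CPM.

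Among the transcription factors, Mlxipl, which encodes ChREBP, was highest in HWAT at 579 CPM (555 to 604), followed by NWAT at 463 CPM (455 to 472), MWAT at 436 CPM (420.4 to 453), SWAT at 348 CPM (339 to 358) and EWAT at 228 CPM (222 to 234). HWAT was above and EWAT below every other depot, and the highest-to-lowest ratio was 2.54 (2.41 to 2.67). On the log2 scale, a depot was set against the mean of the other 4, with 0.5 counts added, and a difference of 1 or more in size was counted as past 2-fold. Mlxipl in EWAT lay just under that line at -0.98, and passed it in 5 of 12 alternative processings.

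Srebf1, which encodes SREBP-1, had its highest level in MWAT at 197 CPM (186 to 208), followed by HWAT at 173 CPM (159.8 to 187). NWAT at 124 CPM and SWAT at 119 CPM did not differ beyond counting error (ratio 1.04, 0.975 to 1.10). EWAT was lowest at 84.2 CPM (80.3 to 88.1), and MWAT was 2.34-fold (2.17 to 2.51) above it.

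Srebf2, which encodes SREBP-2, was nearly level: from high to low, 29.8 CPM in MWAT, 26.9 CPM in SWAT, 25.0 CPM in NWAT, 23.5 CPM in HWAT and 22.1 CPM in EWAT. No neighbours in this order of levels differed beyond counting error, although MWAT exceeded EWAT by 1.35-fold (1.13 to 1.60). Nr1h3, the oxysterol receptor gene upstream of Srebf1, was highest in HWAT at 91.1 CPM (81.5 to 101), followed by NWAT at 75.7 CPM, MWAT at 68.8 CPM, SWAT at 67.5 CPM and EWAT at 57.2 CPM. HWAT was set apart from NWAT and EWAT from SWAT, and the middle 3 depots were not set apart from their neighbours among them.

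The SREBP machinery was split. Scap, the escort, was at 17.0 CPM in SWAT, 20.0 CPM in EWAT, 17.2 CPM in MWAT, 17.7 CPM in NWAT and 15.7 CPM in HWAT. The highest-to-lowest ratio of 1.27 had an interval of 0.963 to 1.71, and no neighbours in the order of levels differed beyond counting error. The depots could therefore not be ranked against each other at this depth. Against the mean of the other 4 depots, EWAT was higher by 0.24 on the log2 scale (0.05 to 0.42).

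Insig1, an anchor that is itself an SREBP target, stood at 218 CPM (203 to 234) in HWAT, 166 CPM (157 to 177) in MWAT, 101 CPM (96.1 to 107) in SWAT, 47.2 CPM (44.4 to 50.1) in NWAT and 44.8 CPM (42.1 to 47.7) in EWAT. EWAT and NWAT did not differ beyond counting error (1.05-fold, 0.964 to 1.15), and HWAT was 4.86-fold (4.42 to 5.35) above EWAT. The log2 difference was -1.36 in EWAT, -1.26 in NWAT, 1.01 in MWAT and 1.497 in HWAT. The MWAT value lay close to the 2-fold line and ranged from 0.92 to 1.11 over 12 alternatives, 9 of which put it under the line.

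Insig2, the anchor whose gene is not induced by SREBP in the liver, ran in another order. Its level was high in NWAT at 80.3 CPM (76.6 to 84.1) and in EWAT at 78.8 CPM (75.1 to 82.7) and low in MWAT at 34.8 CPM (30.4 to 39.7), with SWAT at 43.4 CPM and HWAT at 45.0 CPM. The pair with the lowest Insig1, EWAT and NWAT, thus had the highest Insig2, and the ranges of those 2 depots did not overlap with the other 3 for either gene. NWAT was 2.31-fold (2.01 to 2.66) above MWAT, and no depot passed 2-fold against the mean of the others.

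Thrsp, the target, stood at 5229 CPM (5155 to 5304) in HWAT, 2738 CPM (2698 to 2779) in MWAT, 1529 CPM (1513 to 1545) in NWAT and 1339.6 CPM (1320.2 to 1359) in SWAT, and EWAT was lowest at 623 CPM (613 to 634). Every step of the order HWAT, MWAT, NWAT, SWAT, EWAT was beyond counting error, and HWAT was 8.39-fold (8.20 to 8.58) above EWAT, the widest range of the 9 members. The log2 difference was 1.94 in HWAT and -1.90 in EWAT.

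Pnpla3, the droplet protein gene, took a different order from Thrsp. It stood at 995 CPM (982 to 1008) in NWAT, 754 CPM (739.6 to 769) in SWAT, 691 CPM (679.7 to 702) in EWAT, 685 CPM (658 to 713) in HWAT and 420.1 CPM (404 to 436) in MWAT. NWAT was highest and MWAT lowest, 2.37-fold apart (2.28 to 2.47), and EWAT and HWAT did not differ beyond counting error.

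The enzymes set beside the members varied at least as widely. Fasn was at 462 CPM in SWAT, 81.2 CPM in EWAT, 898 CPM in MWAT, 370.0 CPM in NWAT and 565 CPM in HWAT, an 11.1-fold range (10.5 to 11.7). Acly was at 143 CPM in SWAT, 33.8 CPM in EWAT, 289 CPM in MWAT, 97.5 CPM in NWAT and 246 CPM in HWAT, an 8.57-fold range (7.86 to 9.35). The EWAT level of Acly lay below that of endothelial-like (43.2 CPM) and macrophage-like nuclei (51.7 CPM) of the depot. No Acly signal above background could therefore be read there. In NWAT, endothelial-like nuclei were at 92.5 CPM (82.4 to 103.5), which overlaps the adipocyte-like level. Fasn and Acly had MWAT highest and EWAT lowest, as did Srebf1. Srebf2 had the same ends, but neither was set apart from its neighbour in the order. For Srebf2, MWAT over SWAT was 1.11 (0.924 to 1.32) and HWAT over EWAT 1.06 (0.833 to 1.34).

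Against the mean of the other depots, EWAT had 2 of 9 members past 2-fold lower (Thrsp and Insig1), where 5.46% of the 16948 genes tested were lower and 7.71% higher. HWAT had 2 of 9 higher (Thrsp and Insig1), where 12.1% of genes were higher and 18.6% lower. MWAT had 1 higher (Insig1, background 11.0% higher and 4.13% lower), NWAT 1 lower (Insig1, background 12.4% lower and 4.15% higher), and SWAT none (background 5.20% higher and 6.58% lower). Each count thus rests on 1 or 2 of the 9 genes. The median log2 difference of the members was -0.40 in EWAT and 0.45 in HWAT, against 0.11 and -0.20 over all genes tested. It was -0.10 in SWAT, 0.19 in MWAT and 0.02 in NWAT, against 0.02, 0.09 and 0.06.

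The HWAT values were recomputed in the 154 adipocyte-like nuclei with no plasma cell marker UMI. There Thrsp was at 5413 CPM (5153 to 5682), Insig1 at 259.8 CPM (205 to 324) and Mlxipl at 763 CPM (667 to 868.2). The log2 differences of Thrsp and Insig1 in HWAT, with such nuclei left out of all depots, were 1.999 and 1.77. With the HWAT library left out, Thrsp and Insig1 in EWAT stood at -1.51 and -1.05, still past 2-fold, while Insig1 in NWAT stood at -0.95 and was no longer past it. Without HWAT, MWAT gained Thrsp at 1.34 beside Insig1 at 1.48. Scaling by DESeq2 size factors moved the median of all genes in HWAT from -0.20 to 0.00, and Thrsp there became 2.13.

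Genes around the members were read from 6 lists in the same comparison. None of 11 genes of SREBP processing (the site-1 and site-2 proteases Mbtps1 and Mbtps2, ubiquitin ligases and erlins) passed 2-fold in any depot. Over the depots, 4.15% to 12.1% of all genes tested were past 2-fold higher and 4.13% to 18.6% lower. Among 10 partners of ChREBP and LXR alpha, HWAT had 2 lower, the coactivator gene Ncoa1 at -1.32 and the corepressor gene Ncor1 at -1.06, and no other depot had any. That share is close to the 18.6% of all genes lower in HWAT. With DESeq2 size factors, Ncoa1 alone stayed lower in HWAT, and the ChREBP dimer partner Mlx, at 0.84 by totals, was past the line as higher; Mlx was at -0.84 in EWAT.

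The list of 18 genes of fatty acid synthesis and desaturation, which holds Fasn and Acly, differed most between EWAT and MWAT. EWAT had 8 of 18 lower, where 5.46% of all genes were, and none higher: Fasn (-2.74), Acly, Acaca, Elovl6 (-2.89), Me1, Acss2, Slc25a1 and Mid1ip1. The fatty acid elongase gene Elovl6 was at 9.45 CPM there against 34.1 to 99.5 CPM elsewhere. MWAT had 6 of 18 higher, where 11.0% of all genes were, and none lower, namely Fasn (1.59), Acly, Acaca, Scd1, Elovl6 and the mitochondrial citrate carrier gene Slc25a1 (1.61), and all 18 differences were above 0. The list's median was -0.96 in EWAT and 0.78 in MWAT. With DESeq2 size factors, 10 of 18 were past the line in EWAT (Scd1 and Scd2 added), and 17 of 18 were above 0 in MWAT, where Mid1ip1 was below; with TMM factors it was 16, G6pdx being below as well.

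In HWAT, 3 of the 18 genes were past the line as higher, close to the 12.1% of all genes: Acly (1.19), the acetyl-CoA synthetase gene Acss2 (1.42) and Mid1ip1 (1.74), which encodes a relative of Thrsp that binds acetyl-CoA carboxylase. The carboxylase genes Acaca and Acacb were at -0.36 and -0.46 there. The list's median was 0.31 in HWAT, -0.17 in NWAT with no gene past the line, and -0.20 in SWAT, where Elovl6 was higher (1.11) and Fads2 lower (-1.38, 21 counts).

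Of 22 genes of sterol synthesis and uptake, HWAT had 6 higher (12.1% of all genes), among them Idi1, Fdps, Mvd (1.29) and Hsd17b7, and all 22 were above 0 with a median of 0.72. The farnesyl diphosphate synthase gene Fdps was at 37.5 CPM in HWAT against 9.17 to 31.8 CPM elsewhere. EWAT had 4 lower (5.46% of all genes), among them Fdps (-1.45), Dhcr7 and Acat2 (-1.44), and a median of -0.43. Srebf2 itself was nearly level over the same nuclei, at 23.5 CPM in HWAT and 22.1 CPM in EWAT. MWAT and NWAT had none past the line, with medians of 0.30 and -0.02, and the median in SWAT was -0.36.

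Among 8 LXR targets, the cholesterol exporter genes Abca1 and Abcg1 were lowest in HWAT and highest in EWAT. Abcg1 was at 8.56 CPM in HWAT, where Nr1h3 was highest, and at 54.9 CPM in EWAT, where Nr1h3 was lowest. Where 18.6% of all genes were lower, HWAT had 3 of 8 lower (Abca1 at -1.19, Abcg1 at -2.10 and Mylip at -1.97; Abca1 was no longer past the line with DESeq2 size factors), and EWAT had 2 higher (Abcg1 at 1.23 and Arl4c; 7.71% of all genes). SWAT had 1 lower, Arl4c, on 5 counts, and MWAT and NWAT had none. In HWAT 4 of the 8 were above 0 and the list's median was 0.11, beside 0.42 in EWAT, 0.41 in NWAT, 0.08 in SWAT and -0.18 in MWAT. Of the other ChREBP targets, 5 of 6 were tested: the glycerol-3-phosphate dehydrogenase gene Gpd1 was lower in EWAT (-1.92), Arrdc4 was lower in HWAT on 3 counts, and no other gene passed the line, although Gpd1 in HWAT, at 0.95, passed it with TMM and DESeq2 factors.

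**Figure D2:**
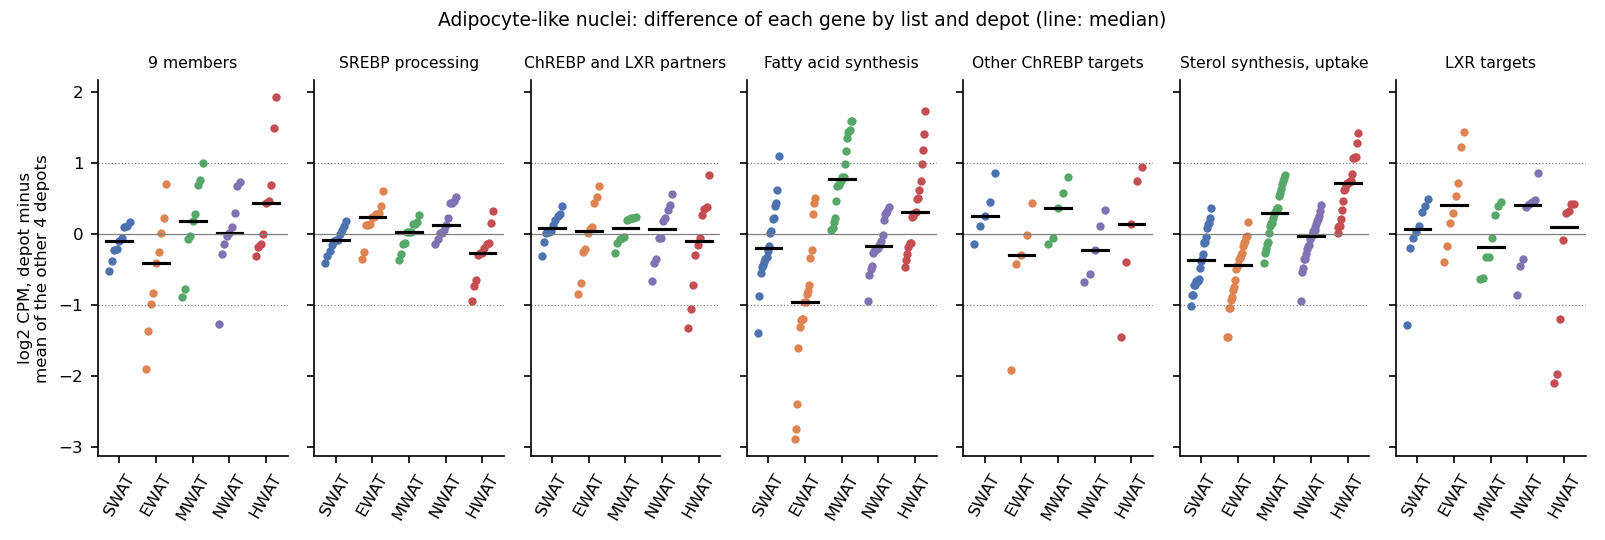
Log2 difference of each gene (points) in adipocyte-like nuclei of a depot from the mean of the other 4 depots, by list, with the list's median as a line and dotted lines at 2-fold. The fatty acid synthesis points lie low in EWAT (median -0.96) and all above 0 in MWAT, and the sterol points all lie above 0 in HWAT (median 0.72).

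Within each depot, the members were compared between adipocyte-like nuclei and the other named classes with at least 50 nuclei, 6 in SWAT and EWAT, 8 in MWAT and 7 in NWAT and HWAT. Mlxipl, Srebf1, Thrsp, Pnpla3 and Insig1 were more than 2-fold above the mean of the other classes in all 5 depots, and Nr1h3 in MWAT, NWAT and HWAT. Insig2, Scap and Srebf2 were not. The count higher was 5 of 9 in SWAT (background 11.4%), 5 in EWAT (13.2%), 6 in MWAT (11.6%), 6 in NWAT (13.9%) and 6 in HWAT (14.7%).

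These folds are over the mean of the log2 CPM of the other classes, with 0.5 counts added. Mlxipl was 9.15-fold above the mean of the other classes in SWAT, 10.6-fold in EWAT, 20.4-fold in MWAT, 8.08-fold in NWAT and 41.4-fold in HWAT. The HWAT value rests in part on endothelial-like nuclei with 0 Mlxipl counts: without that class it was 26.9-fold, and over the mean of CPM it was 15.2-fold, below MWAT at 18.1-fold. Over the mean of CPM, Mlxipl in NWAT was 5.25-fold, and Nr1h3 in NWAT was no longer past the line at 1.92-fold. Pnpla3 was 6.30-fold above it in SWAT, 10.1-fold in EWAT, 20.7-fold in MWAT, 11.4-fold in NWAT and 60.2-fold in HWAT. For both genes, the adipocyte-like level stood above that of every other class in every depot, beyond counting error. Srebf1 was 2.53-fold (EWAT) to 8.23-fold (HWAT) above the mean, Thrsp 2.94-fold (NWAT) to 12.8-fold (HWAT), and Insig1 2.10-fold (EWAT) to 7.42-fold (HWAT).

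Free RNA in the droplets gives counts in every class. Its part in this contrast was not tested beyond the alternative with the free-RNA profile estimated from the nuclei subtracted. There, 1 of 20 counts of members past 2-fold, between depots or classes, moved, as given below. Summed adipocyte markers in the other classes stood at a median of 20.1% of their adipocyte-like level in SWAT, 12.4% in EWAT, 9.02% in MWAT, 15.6% in NWAT and 6.05% in HWAT. Thrsp in those classes stood at a median of 28.3%, 17.8%, 12.6%, 26.7% and 4.89% of its own adipocyte-like level, in the same order. Thrsp was above the marker share in 6 of 6, 6 of 6, 7 of 8, 7 of 7 and 5 of 7 classes. Pnpla3 was at 17.1%, 9.69%, 4.82%, 8.81% and 1.27%, and Mlxipl at 10.2%, 9.48%, 4.28%, 10.5% and 1.93%, below the marker medians. Low counts of the members in other classes were therefore not read as expression.

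The share of nuclei with a UMI showed the same for Thrsp. After each nucleus was thinned to 1000 UMIs, 58.2% of adipocyte-like nuclei in SWAT, 40.8% in EWAT, 76.4% in MWAT, 65.6% in NWAT and 92.1% in HWAT held a Thrsp UMI (73.1%, 62.2%, 81.8%, 88.9% and 93.3% before thinning). Endothelial-like nuclei, thinned alike, held one in 34.6%, 16.4%, 26.0%, 41.0% and 32.9%. For Mlxipl the thinned shares were 27.7%, 19.9%, 33.1%, 35.3% and 40.2% of adipocyte-like nuclei (45.0%, 39.3%, 43.0%, 68.9% and 54.8% before thinning). Of endothelial-like nuclei, 3.18%, 1.65%, 0.938%, 2.22% and 0% held a Mlxipl UMI after thinning. The HWAT value was 0 of 228, for which a limit of 3 nuclei, not an exact interval, gives 1.32%.

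Scap and Srebf2 were not set higher in adipocyte-like nuclei than in other classes. Scap stood at 0.672 (SWAT), 0.602 (EWAT), 0.868 (MWAT), 0.752 (NWAT) and 0.714 times (HWAT) the mean of the other classes. Of those classes, 2 of 6, 3 of 6, 1 of 8, 3 of 7 and 2 of 7 were above the adipocyte-like level beyond counting error, none was below it, and some held as few as 1 Scap count. Srebf2 was 2-fold lower in adipocyte-like nuclei than the mean of the other classes in EWAT and HWAT (0.495-fold and 0.498-fold), where 29.2% and 27.7% of genes were lower. In SWAT, MWAT and NWAT no member was past 2-fold lower, against backgrounds of 27.5%, 29.9% and 29.0%. B cell-like nuclei held the highest Srebf2 of the named classes in HWAT at 131 CPM (119 to 144), apart from the T or NK cell-like nuclei next in order at 56.0 CPM (37.8 to 79.9). In NWAT they were also highest at 104 CPM, but on 14 counts (56.9 to 175), which overlaps T or NK cell-like nuclei at 66.4 CPM (33.1 to 119) and mesothelial-like nuclei at 62.0 CPM (51.8 to 73.6). Without the doublet removal, both the EWAT and the HWAT value, which lay on the 2-fold line, crossed it. Over the mean of CPM, Srebf2 in NWAT was past the line as well, at 0.478-fold.

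Nr1h3 was shared with other classes. In SWAT and EWAT, lymphatic endothelial-like nuclei were at 79.3 and 62.7 CPM, and in NWAT fibro-adipogenic progenitor-like (FAP-like) nuclei were at 81.2 CPM, beside 67.5, 57.2 and 75.7 CPM in adipocyte-like nuclei. None of these 3 pairs differed beyond counting error. Mlxipl was at 307 CPM (250.4 to 371) in 140 skeletal muscle-like nuclei of NWAT, the nearest any other named class came to the adipocyte-like level of its depot.

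**Figure D3:**
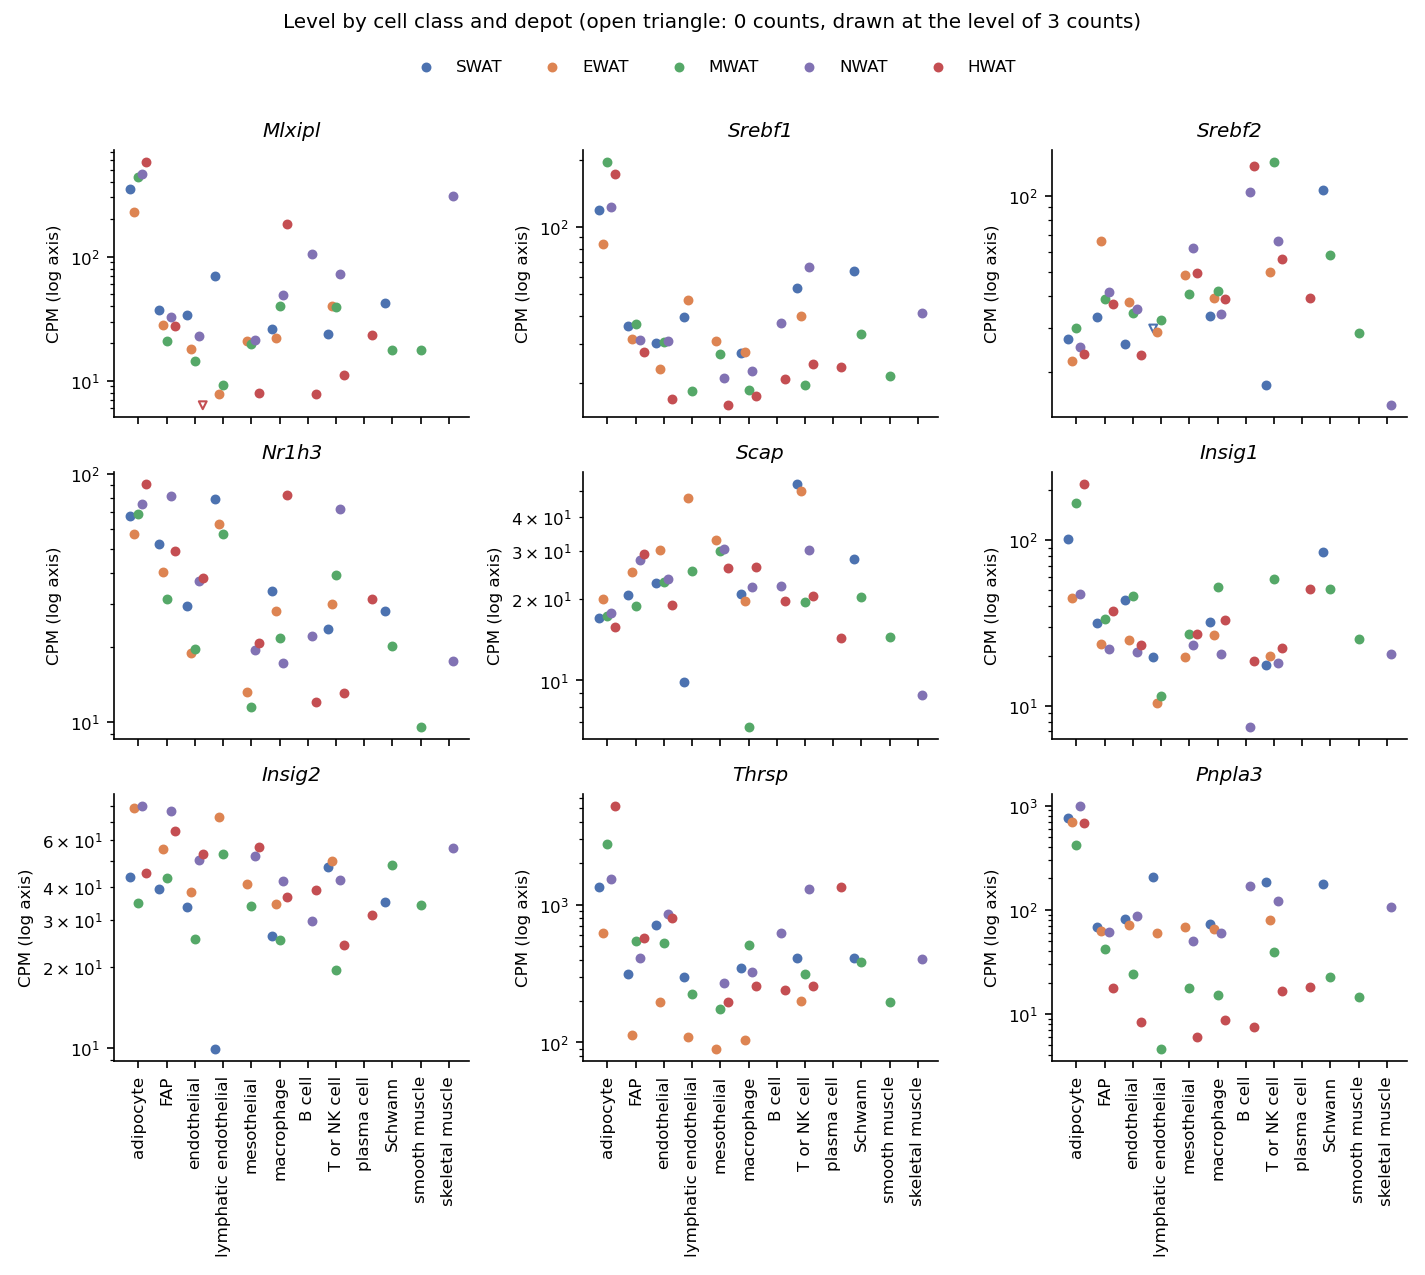
Level of each member (CPM, log axis) in every named class with at least 50 nuclei (x axis), coloured by depot; open triangles mark 0 counts, drawn at the level of 3 counts. Mlxipl and Pnpla3 are highest in adipocyte-like nuclei in all depots, Mlxipl is also high in NWAT skeletal muscle-like (307 CPM) and HWAT macrophage-like nuclei (184 CPM), and the Scap points of adipocyte-like nuclei lie between 15.7 and 20.0 CPM.

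One macrophage-like cluster carried Mlxipl outside the adipocytes. Its leading genes included Fcna, C1qa, C1qb, C1qc, Marco, Timd4 and Vsig4, and 775 of its 872 nuclei (88.9%) came from HWAT. In those 775 nuclei Mlxipl was at 250.3 CPM (226 to 276), with a UMI in 251 nuclei, and in the other 414 HWAT macrophage-like nuclei it was at 20.7 CPM, a ratio of 12.1 (7.00 to 23.0). The cluster's 67 NWAT nuclei were at 374 CPM (291 to 472) against 22.3 CPM in the other NWAT macrophage-like nuclei, a ratio of 16.8 (11.5 to 24.6).

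Pnpla3, Fasn and Thrsp were lower in the cluster than in the other HWAT macrophage-like nuclei, whereas Acly was higher. In the HWAT nuclei of the cluster, Pnpla3 was at 3.87 CPM on 6 counts, Fasn at 31.0 CPM, and summed adipocyte markers at 294 CPM, and Thrsp was 0.256 times (0.215 to 0.304) its level in the other macrophage-like nuclei. Those markers were at 1010 and 650 CPM in the other HWAT macrophage-like clusters. The part of free RNA in the lower Pnpla3, Fasn and Thrsp was not tested. Acly was at 103 CPM against 71.5 CPM in HWAT, a ratio of 1.43 (1.02 to 2.04), and at 139 CPM against 69.0 CPM in NWAT, a ratio of 2.01 (1.28 to 3.06). Nr1h3 was at 103 CPM against 30.2 CPM, a ratio of 3.42 (2.12 to 5.82), while in NWAT it was at 16.02 CPM on 3 counts against 17.5 CPM. Srebf2 was lower in the cluster in HWAT, at 20.0 against 85.9 CPM. The members did not enter the clustering, but the cluster was singled out after its values were seen.

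Across adipocyte-like nuclei, the members were set beside Fasn and Acly nucleus by nucleus, after thinning each nucleus to 1000 UMIs. This left 5396 nuclei in SWAT, 7625 in EWAT, 3218 in MWAT, 6320 in NWAT and 1516 in HWAT. A Fasn UMI was found in 28.2%, 7.63%, 41.9%, 26.4% and 35.4% of them, and an Acly UMI in 10.3%, 3.16%, 19.7%, 8.54% and 16.8%. Endothelial-like nuclei, thinned alike, held a Fasn UMI in 14.2%, 2.75%, 13.1%, 15.3% and 6.58% and an Acly UMI in 5.19%, 4.35%, 7.40%, 7.37% and 4.82%. The Acly share of adipocyte-like nuclei in EWAT thus lay below that of endothelial-like and macrophage-like nuclei (5.42%), so no Acly signal above background could be read there. In NWAT the Acly share (8.54%, 7.87 to 9.26) overlapped those of endothelial-like (7.37%, 6.11 to 8.79) and macrophage-like nuclei (7.5%, 5.94 to 9.31). The EWAT and NWAT ratios with Acly are therefore given as values only. The part of free RNA in the ratios was not tested. The nuclei of a depot share 1 library, so the values below describe that library.

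Thrsp was higher in nuclei with a Fasn UMI in all 5 depots. Its level in nuclei with a Fasn UMI over that in nuclei without was 2.22 for SWAT (2.12 to 2.32) and 2.06 for MWAT (1.97 to 2.15). NWAT followed at 1.99 (1.92 to 2.07), EWAT at 1.74 (1.59 to 1.89) and HWAT at 1.5 (1.44 to 1.57). Pearson's r across nuclei was 0.276 for SWAT, 0.304 for MWAT, 0.240 for NWAT, 0.0992 for EWAT and 0.219 for HWAT. The level was also higher at a higher number of Fasn UMIs: in MWAT it was 1784 CPM in nuclei with none, 2747 CPM with 1 and 4844 CPM with 2 or more, and in EWAT it was 612, 965 and 1921 CPM.

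Insig1 varied more between depots. The ratio with Fasn was highest for HWAT at 2.34 (1.89 to 2.91), next for MWAT at 2.17 (1.81 to 2.60) and for NWAT at 1.80 (1.44 to 2.25). It was 1.35 (1.12 to 1.62) for SWAT, and the EWAT ratio of 1.39 (0.946 to 1.99) was not apart from 1. In HWAT its level was 158 CPM with no Fasn UMI, 262 CPM with 1 and 545 CPM with 2 or more. With Acly, the Insig1 ratios were 1.79, 1.77, 2.005, 2.28 and 1.90 in SWAT, EWAT, MWAT, NWAT and HWAT. Thrsp reached 2.07, 1.11 (0.947 to 1.29), 1.95, 2.04 and 1.60 with Acly, so that its EWAT ratio was not apart from 1.

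Mlxipl and Srebf1 showed smaller ratios with Fasn than Thrsp did. Mlxipl in nuclei with a Fasn UMI was 1.35, 1.17, 1.16, 1.21 and 1.09 times its level without, in the same order of depots, and Srebf1 was 1.36, 1.17, 1.35, 1.45 and 1.38 times. The Mlxipl intervals in EWAT (0.988 to 1.38) and HWAT (0.949 to 1.25) held 1, as did that of Srebf1 in EWAT (0.878 to 1.53). In HWAT the Srebf1 interval (1.07 to 1.79) overlapped that of Thrsp (1.44 to 1.57). Mlxipl reached 1.83 (1.62 to 2.06) with Acly in SWAT and 1.64 (1.41 to 1.91) in HWAT. Srebf2 reached 2.15 (1.38 to 3.24) with Acly in SWAT on 29 and 118 counts and 2.84 (1.28 to 6.05) in HWAT on 12 and 21 counts. With Fasn all 5 Srebf2 intervals held 1, the highest ratio being 1.94 (0.922 to 4.10) in HWAT. For Nr1h3 with Fasn, all 5 intervals held 1 as well, while with Acly Nr1h3 in NWAT was lower, at 0.656 (0.427 to 0.968) on 27 and 441 counts.

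Among the remaining members, Pnpla3 with Fasn ran from 1.04 (0.975 to 1.12) in SWAT to 1.55 (1.37 to 1.74) in HWAT. Scap intervals with Fasn held 1 in all 5 depots. Insig2 in HWAT was at 0.564 (0.307 to 0.987) with Fasn on 17 and 55 counts and at 0.622 (0.258 to 1.30) with Acly on 8 and 64 counts, and each direction changed in 2 alternatives. For comparison, Acly itself in nuclei with a Fasn UMI was 4.15, 1.71, 3.28, 3.18 and 2.90 times its level without.

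**Figure D4:**
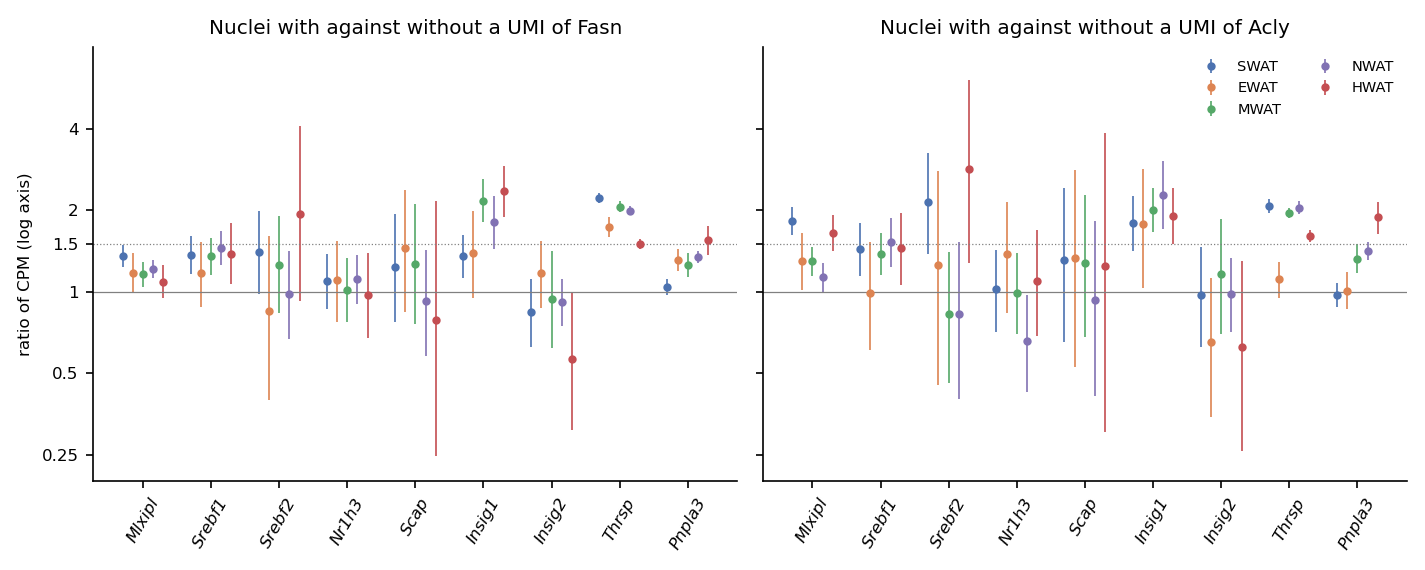
Ratio of each member's CPM in adipocyte-like nuclei with a UMI of Fasn (left) or Acly (right) over nuclei without (log axis), coloured by depot, with 95% intervals of counting error, the solid line at 1 and the dotted line at 1.5. Thrsp lies between 1.5 and 2.22 with Fasn, and the Nr1h3 and Scap intervals with Fasn all cross 1.

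Counted at 1.5-fold or more, the members higher with Fasn were 1 of 9 in SWAT (Thrsp; background 8.20% of genes), 1 in EWAT (Thrsp; 11.8%), 2 in MWAT (Thrsp and Insig1; 10.4%), 2 in NWAT (Thrsp and Insig1; 6.06%) and 3 in HWAT (Srebf2, Pnpla3 and Insig1; 7.74%). Thrsp in HWAT fell just short of the line. Srebf2 in HWAT rested on 17 and 16 counts, with an interval that held 1. With Acly, 4 were higher in SWAT (Mlxipl, Srebf2, Thrsp and Insig1; 12.7%), 1 in EWAT (Insig1; 19.4%), 2 in MWAT (Thrsp and Insig1; 10.6%), 3 in NWAT (Srebf1, Thrsp and Insig1; 11.1%) and 5 in HWAT (Mlxipl, Srebf2, Thrsp, Pnpla3 and Insig1; 14.3%). The EWAT and NWAT counts with Acly carry the limit on the Acly share given above.

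The share of mitochondrial UMIs was also higher in nuclei with a Fasn UMI. Nuclei with a Fasn UMI held 1.87, 1.48, 2.43, 1.55 and 1.40 times the mitochondrial share of those without in SWAT, EWAT, MWAT, NWAT and HWAT, for example 1.10% against 0.455% in MWAT. Their summed adipocyte markers were 0.948, 1.003, 0.948, 1.01 and 0.972 times as high. Among nuclei with at most 0.5% mitochondrial UMIs, the Thrsp ratio with Fasn was 2.05, 1.51, 1.74, 1.91 and 1.60, and the Insig1 ratio was 1.72, 1.04, 1.87, 1.70 and 2.63. In that setting Insig1 in EWAT was thus close to 1.

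Between members, correlations across nuclei were weak. Over the 36 pairs the median r was 0.0168 in SWAT, 0.00508 in EWAT, 0.0083 in MWAT, 0.0034 in NWAT and 0.0217 in HWAT, and the highest value in any depot was 0.197, for Pnpla3 and Insig1 in HWAT. Counts per nucleus are sparse, and these values are given as a description.

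HWAT held a thermogenic sub-cluster of 304 of its 1806 adipocyte-like nuclei (16.8%), named from brown-fat genes, in which Ucp1 was at 1441 CPM against 14.9 CPM in the other 1502 nuclei. Of the 9 members, 4 were past 2-fold lower there. Srebf1 was at 87.8 against 193 CPM (ratio 0.456, 0.343 to 0.597), Thrsp at 2816 against 5779 CPM (0.487, 0.464 to 0.511), Pnpla3 at 281 against 777 CPM (0.362, 0.310 to 0.420) and Insig1 at 83.3 against 248.8 CPM (0.335, 0.2504 to 0.440). The count of 4 of 9 stands beside 8.99% of 10327 genes lower and 10.6% higher.

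Mlxipl was closer in both sets, at 491 against 599 CPM (0.819, 0.726 to 0.922), and Nr1h3, at 50.6 against 100.3 CPM, lay just above the line at 0.504. Scap was the 1 member past 2-fold higher, at 26.8 against 13.2 CPM on 18 and 39 counts (2.03, 1.09 to 3.63), a call that was lost in 2 alternatives. Insig2 was at 56.5 against 42.4 CPM (1.33, 0.902 to 1.93). Fasn and Acly were at 0.575 and 0.524 times their level in the other nuclei. With the thermogenic nuclei left out, the HWAT differences of Thrsp and Insig1 from the other depots were 2.08 and 1.69 on the log2 scale.

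**Figure D5:**
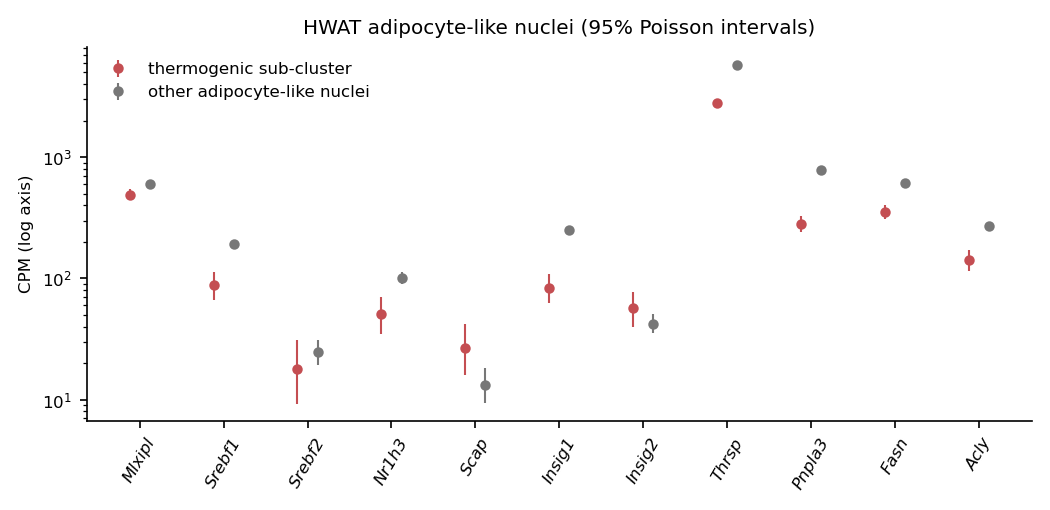
Level of each member, Fasn and Acly (CPM, log axis) in the thermogenic sub-cluster of HWAT (304 nuclei, red) and in the other HWAT adipocyte-like nuclei (1502 nuclei, grey), with 95% Poisson intervals. Srebf1, Thrsp, Pnpla3 and Insig1 are lower in the sub-cluster (ratios 0.335 to 0.487), Mlxipl is close in both (491 and 599 CPM), and Scap is higher on few counts.

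The genes whose pattern was most like that of each member were taken across 39 sums of a depot and a class, over log2 CPM, where sums of a depot share a library. For Srebf1 they were Acsl1 (r = 0.93), Dgat1, Plin1, Slc36a2 and Nrg4, and for Pnpla3 they were Apol6 (0.97), Nnat, Gm3289, Acvr1c and 4931428L18Rik. Acvr1c and Plin1 are among the adipocyte markers. Thrsp was most like Gpx4 (0.93), Lncbate1, Agpat2, Mrap and Pex16.

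Mlxipl was most like the hexokinase gene Hk2 (0.84), Ucp3, the glycogen branching enzyme gene Gbe1, Abcd2 and the glycogen synthase gene Gys1. Insig1 was most like Dbi (0.73), Acss2, Apip, Slc25a1 and Echdc1, of which Acss2 and Slc25a1 belong to the fatty acid synthesis list. Nr1h3 was most like Il15ra (0.80) and Hsd3b7 (0.71). For Insig2 the highest value was 0.66 (Cryzl1), for Srebf2 it was 0.74 (Ap3s2) and for Scap it was 0.79 (Rundc1).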

How the data were processed

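The deposited files hold raw UMI counts per gene and nucleus, and the file headers name Cell Ranger 6.0.1 as the software behind them. The submitters' processing notes name Cell Ranger, Seurat and the mm10 build. The gene annotation used for counting is not given in the sources used here. Nuclei with at least 200 genes and at most 10% mitochondrial UMIs were kept, and likely doublets were removed at 0.8% per 1000 nuclei. Nuclei were clustered (2000 variable genes, 40 components, 20 neighbours, Leiden, resolution 1) with scanpy 1.11.5, leidenalg 0.10.2 and Python 3.11.15, without the 9 members, Fasn and Acly. Clusters were named from marker lists, and the thresholds for naming (at least 2 of a list's markers among the top 50 genes, 20 nuclei or more) were set after the clusters had been seen.

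Counts were summed per depot and class and given as CPM with exact Poisson intervals, and shares have exact (Clopper-Pearson) intervals, all at 95% and covering counting error only. Genes with at least 20 counts entered a comparison. Folds used for counting genes have 0.5 counts added. Scaling alternatives used TMM factors from edgeR 4.0.16 in R 4.3.3 and a median-of-ratios calculation of DESeq2's size factors. The scripts were tested on simulated data. The members, lists and tests were chosen with earlier results of these data known. Named besides the members are Fasn, Acly, the list genes past a fold or at either end of their list, and the 5 genes most like each member in log2 CPM across depot and class sums, among genes with 500 or more counts. A few list genes and the macrophage-like cluster were named after their values were seen. Values of some single genes of the sterol list are not reported here.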

Additional observations from a re-analysis of the deposited data

How the results depend on the processing

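No paired analysis was possible because each depot is 1 pooled library with no replicate. Of 704 recomputed differences of single genes between depots, 165 moved beyond the counting error of the main value and 0 reversed a called direction. A reversal could be scored only where the main difference was past 2-fold. The 2-fold calls of Thrsp and Insig1 in EWAT and HWAT held in all 12 alternatives run with every library. The count of members higher in MWAT, 1 as reported (Insig1), was 0 with at most 2% mitochondrial UMIs, at least 500 genes, the class set per nucleus, the thermogenic nuclei left out, TMM or DESeq2 factors, nuclei weighted equally, the members kept among the variable genes, or plasma-marker nuclei left out. Without the HWAT library it was 2, and the count lower in NWAT was 0 in place of 1. In the class comparison, the count of members lower in adipocyte-like nuclei (1 in EWAT and in HWAT, Srebf2) was 0 in EWAT with no doublet removal, the class set per nucleus or classes of at least 200 nuclei. It was 0 in HWAT with no doublet removal, at most 2% mitochondrial UMIs, at least 500 genes or the thermogenic nuclei left out. In NWAT it was 1 in place of 0 with the free-RNA profile subtracted or the mean taken over CPM.

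The counts of members at 1.5-fold with Fasn moved most. In SWAT the count was 1, and 2 with at most 2% or at most 0.5% mitochondrial UMIs, at least 500 genes, thinning to 2000 UMIs or no thinning, 3 with the class set per nucleus and 6 at 2 or more Fasn UMIs. At 2 or more UMIs it was 5 in EWAT (from 1), 4 in MWAT (from 2) and 4 in NWAT (from 2). It was 6 in MWAT with at most 0.5% mitochondrial UMIs, 1 in NWAT with no doublet removal and 4 in NWAT with at most 2% mitochondrial UMIs. In HWAT (3) it was 5 with at most 2% mitochondrial UMIs, at least 500 genes or thinning to 2000 UMIs, and 1 with the thermogenic nuclei left out. With Acly, EWAT (1) had 0 with at most 2% mitochondrial UMIs, the class set per nucleus, thinning to 2000 UMIs or no thinning, and 8 at 2 or more UMIs, where only 1 nucleus remained. MWAT (2) had 4 at 2 or more UMIs and 5 with at most 0.5% mitochondrial UMIs, and NWAT (3) had 1 with the latter.

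The count of members higher in the thermogenic sub-cluster (1, Scap) was 0 at sub-cluster resolution 1 and with no doublet removal. Of 810 recomputed ratios with Fasn or Acly, 146 moved outside the main interval and 5 reversed, which could be scored only where the main ratio was past 1.5-fold. Reversed ratios, all in HWAT, were those of Insig2 with Fasn (1.61) and Acly (1.16) at most 2% mitochondrial UMIs and with Fasn (1.20) and Acly (1.27) thinned to 2000 UMIs, and that of Srebf2 with Fasn (0.145) with the class set per nucleus. The causes were not tested. The alternatives that leave out plasma-marker nuclei, the HWAT library or nuclei over 0.5% mitochondrial UMIs, or that average the other classes over CPM or without classes at 0 counts, were chosen after seeing the data. Depth limits Scap and Srebf2 most, which had 57 and 85 counts in HWAT adipocyte-like nuclei.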
